A study of Drosophila melanogaster with 6 samples.

Results

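The 38 genes described here are cyclins, cyclin-dependent kinases, E2F factors, replication licensing and DNA synthesis genes and mitotic regulators of Drosophila melanogaster, taken from a fixed list of gene symbols and measured in third-instar larval leg discs. The list was matched by symbol to the FlyBase identifiers of the count table, and all 38 were found among its 17612 rows. The study compared discs labelled Double with wild-type (WT) discs, 3 libraries each, every library made from poly-A RNA of 20 discs dissected from larvae of flies kept at 25 °C. The series text describes the mutant discs as carrying a deletion of a PRE, a Polycomb response element, which is a DNA element that recruits Polycomb group repressors. Neither the deleted elements, the strain background nor the sex or exact age of the larvae are given in the labels, and whether replicates came from separate crosses is not stated, so that the spread between libraries may be partly technical.

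In a dividing disc cell, Cyclin D with Cdk4 and Cyclin E with Cdk2 inactivate the retinoblastoma homologue Rbf, which frees the E2f1 and Dp dimer to transcribe genes of DNA synthesis. Origins are licensed in G1, when the origin recognition complex and the protein Dup load the MCM helicase, and geminin blocks reloading once replication has begun. The phosphatase String then activates Cdk1 with its cyclins A, B and B3, the Polo and Aurora kinases build the spindle, and the anaphase-promoting complex (APC/C), turned on by fzy and later by fzr, destroys the mitotic cyclins. In imaginal discs the step into mitosis is set largely by transcription of stg, and the step into S phase by CycE. For the comparison between phases, 24 genes were placed in G1-S and 14 in G2-M.

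The libraries held 11772621, 11103471 and 10025174 counts in Double replicates 1, 2 and 3, and 13605668, 8818943 and 10941615 counts in WT replicates 1, 2 and 3. WT replicate 1 stood apart from the other WT libraries: the chi-square per degree of freedom of its counts against WT replicates 2 and 3 was 33.2 and 36.3, against 10.03 between those 2. Among the Double libraries the value was 23.6 between replicates 1 and 2, 8.99 between replicates 1 and 3, and 10.8 between replicates 2 and 3. Leg disc markers summed to 3851 to 3991 CPM (read counts relative to the TMM-scaled size of the library) in Double and 3988 to 4059 CPM in WT, and Dll, hth and Sp1 were high in all 6 libraries. Markers of tissue that lies beside the discs varied far more. The fat body markers summed to 13861, 3522 and 8843 CPM in Double replicates 1, 2 and 3, and to 384, 7102 and 5014 CPM in WT replicates 1, 2 and 3. The salivary gland markers summed to 3652, 1337 and 1803 CPM in Double replicates 1, 2 and 3, and to 308.5, 287 and 3785 CPM in WT replicates 1, 2 and 3. Both are larval tissues whose cells replicate DNA without dividing. Of the tested markers of these tissues, 0 of 10 and 0 of 11 were called between Double and WT, while 1 of 14 leg disc markers (dac) and 2 of 12 muscle markers (Mp20 and up) were called lower, against 0.943% of all tested genes called lower. All Double libraries lay above all WT libraries for 2 of the 10 fat body and 3 of the 11 salivary gland markers, against 10.3% of all tested genes. In these lists 0 lay below without overlap. Of the 14 leg disc markers, 3 lay above and 2 below without overlap, against 10.3% and 9.11% of all tested genes. Below without overlap lay also 5 of the 12 muscle, 2 of the 10 haemocyte and 1 of the 6 tracheal markers. Haemocyte markers summed to 355 to 459 CPM in Double and 400.0 to 704 CPM in WT, and neuron and glia markers to 156 to 256 CPM in Double and 156 to 353 CPM in WT. All 10 haemocyte markers had log2 fold changes below 0 (median -0.73), as did 9 of the 10 neuron and glia markers (median -0.56). Of all tested genes 50.1% were above 0, and 0 markers of either list were called. The muscle and adepithelial sums were 206 to 242.5 CPM in Double and 243.2 to 267 CPM in WT, without overlap. The tracheal sums were 1195 to 1382 CPM in Double and 1177 to 1403 CPM in WT. In such bulk RNA, fewer cells of a type and less RNA per cell cannot be told apart.

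The cell cycle genes were all expressed, and their levels spanned a 19.3-fold range when the CPM was divided by the length of exon per gene. PCNA, the sliding clamp of the DNA polymerases, was the highest, at 151 ± 15.2 CPM per kilobase in Double and 147 ± 6.51 CPM per kilobase in WT (SD, n = 3 each, as for all values given with ±). Next in the WT order came Cdk1, Bub3, polo and CycA, between 106 and 116 CPM per kilobase in Double and between 103 and 111 CPM per kilobase in WT. The MCM genes lay in the middle, from 34.7 for Mcm5 to 56.2 for Mcm7 in Double and from 32.8 to 54.1 CPM per kilobase in WT. At the bottom stood the origin recognition genes Orc1, Orc2, Orc5 and Orc6, from 8.34 to 13.015 CPM per kilobase in Double and from 7.61 to 10.8 in WT, together with the kinase gene Bub1, the Cdk1 inhibitor gene Myt1 and fzr. CycE, the limiting S phase cyclin, was the lowest of the cyclins, at 18.9 ± 2.28 CPM per kilobase in Double and 17.1 ± 2.06 in WT. Of the 37 pairs of neighbours in the WT order, 30 differed by less than their combined SD, so the order of most neighbours was not resolved.

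**Figure D1:**
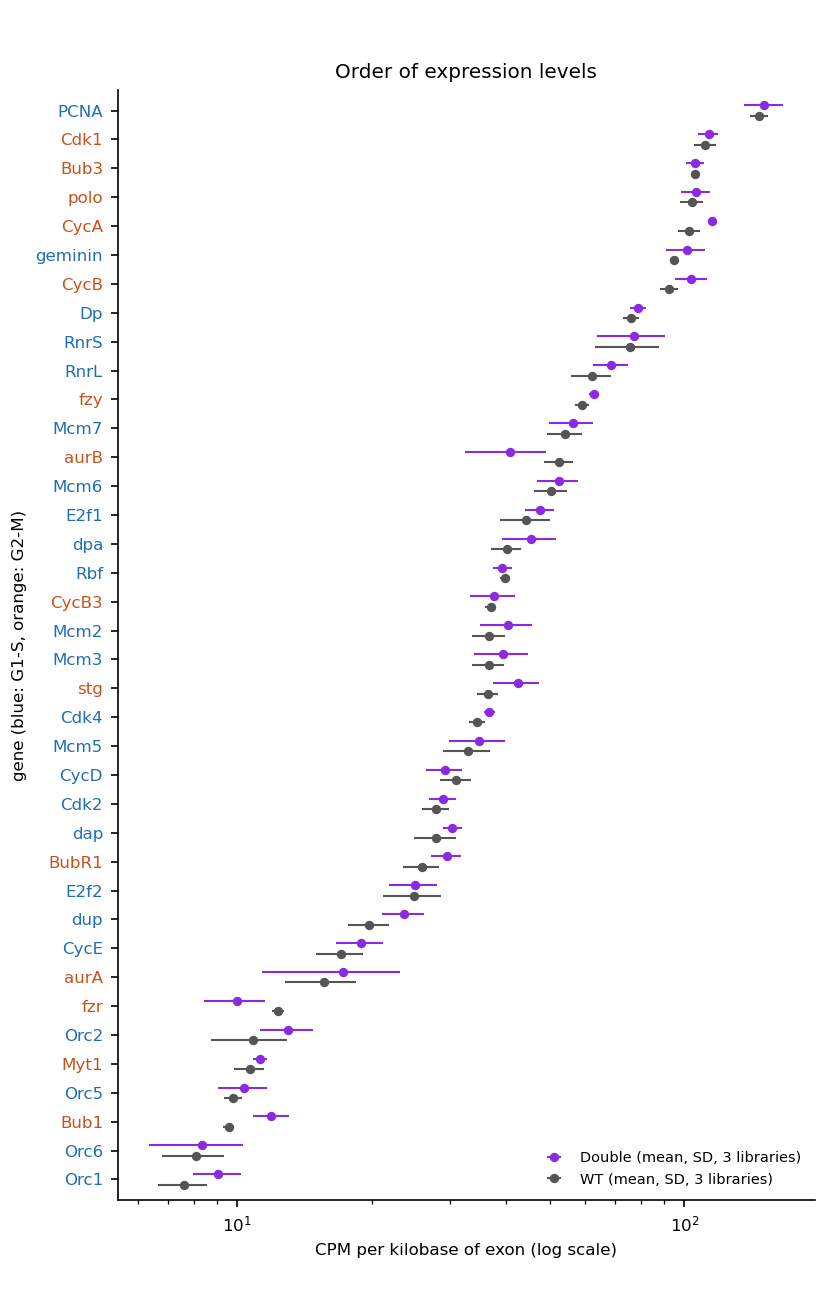
Expression level of the 38 genes in CPM per kilobase of exon on a log axis, as the mean and SD of 3 Double and 3 WT libraries, in the WT order (blue names, G1-S; orange names, G2-M). PCNA lay at the top near 150 CPM per kilobase, the Orc genes near 10, and 30 of the 37 neighbouring pairs differed by less than their combined SD in WT.

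None of the 38 genes passed the test between Double and WT. All had enough counts to be tested, from 69 to 3933 counts per gene and library. The log2 fold changes lay between -0.37 for aurB and 0.32 for Bub1, with a median of 0.09 against 0.00 over all 8802 tested genes, and their median standard error was 0.10. Over all tested genes 1.49% were called (0.545% higher and 0.943% lower in Double) at an adjusted p under 0.05 by edgeR's quasi-likelihood test with Benjamini-Hochberg adjustment. At an unadjusted p under 0.05 stood 4 of the 38 on the higher side in Double (Bub1, CycA, dup and stg) and 2 on the lower side (fzr and aurB), or 15.8% against 12.3% of all tested genes. The groups did not overlap for 6 of the 38 (15.8%), against 19.5% of all tested genes. Of these, 4 were higher in Double and 2 lower, against 10.3% and 9.11% of all tested genes. DESeq2 and limma-voom also called 0 of the 38. At an unadjusted p under 0.05 they had 4 and 5 of the 38, against 997 and 1094 of the 8802 tested genes.

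The measurements were tight enough to bound the differences. For 35 of the 38 genes (92.1%) the 95% confidence interval of the fold change lay wholly within 1.5-fold in either direction, against 65.9% of all tested genes, whose median level was 34.2 CPM against 106 CPM here. The exceptions were Orc2, aurA and aurB. The estimate was above 0 for 33 of the 38, against 50.1% of all tested genes. That excess rested largely on 2 libraries. Without WT replicate 1 the number was 25 of 38, against 52.9% of all tested genes, with a median of 0.04. Without Double replicate 2 it was 22 of 38, against 48.3% of all tested genes, with a median of 0.02.

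**Figure D2:**
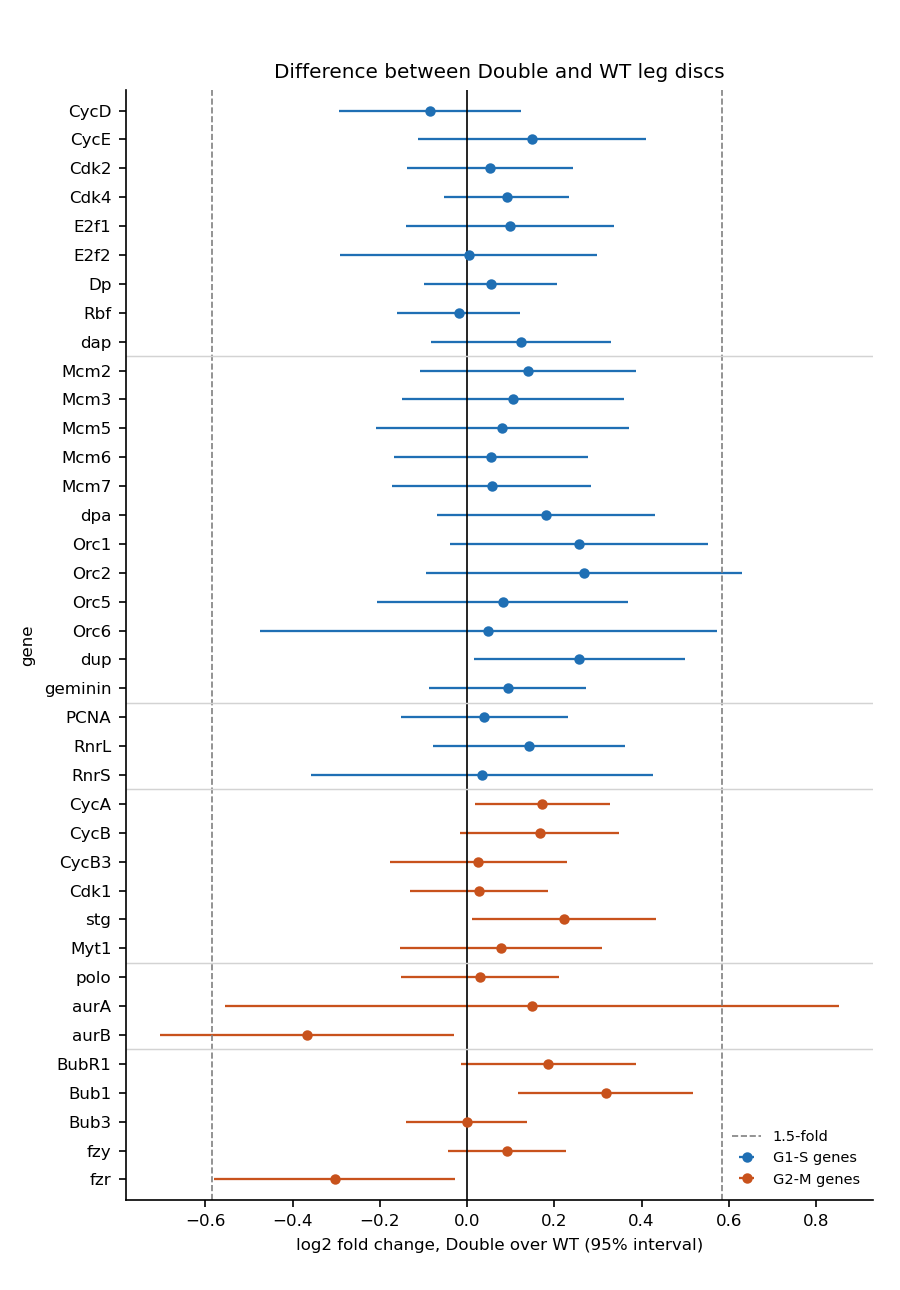
Log2 fold change of each gene, Double over WT, with its 95% interval from edgeR (3 libraries each; blue, G1-S; orange, G2-M; dashed lines, 1.5-fold; grey lines part the 6 roles). Intervals of 35 of the 38 genes lie between the dashed lines, and those of Orc2, aurA and aurB cross one.

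Regulators of the G1 to S step differed by at most 0.15 on the log2 scale, with 0 of 9 genes called. CycE read 87.5, 109 and 90.3 CPM in Double replicates 1, 2 and 3, and 74.7, 94.8 and 89.1 CPM in WT replicates 1, 2 and 3. The groups overlapped, with a log2 fold change of 0.15, a standard error (SE) of 0.11 and an edgeR adjusted p of 0.64. dap, which encodes the inhibitor of Cyclin E and Cdk2, read 74.6, 81.1 and 74.3 CPM in Double and 62.5, 77.7 and 71.1 CPM in WT (log2 fold change 0.12, SE 0.09). Both genes were lowest in WT replicate 1.

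The transcription factor gene E2f1 read 281, 325 and 313 CPM in Double and 244, 311 and 303 CPM in WT (log2 fold change 0.10, SE 0.10; edgeR adjusted p = 0.738). Rbf, which holds E2F in check, read 134, 145 and 147 CPM in Double and 142, 148 and 142 CPM in WT (log2 fold change -0.02, SE 0.06). These libraries were interleaved. Cdk4, the partner of Cyclin D, was the only one of the 9 whose groups did not overlap (11.1%, against 19.5% of all tested genes). Cdk4 read 89.3, 93.2 and 88.1 CPM in Double and 86.7, 80.8 and 86.6 CPM in WT. It differed by a log2 fold change of 0.09, with an SE of 0.06 and an edgeR adjusted p of 0.604. Of the remaining regulators, CycD was at 71.5 ± 6.63 CPM in Double and 75.8 ± 6.10 CPM in WT, and Cdk2, Dp and the repressor E2f2 had log2 fold changes of 0.05, 0.05 and 0.00.

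Among the 12 licensing and origin genes all estimates were above 0 and 0 were called, with a median log2 fold change of 0.10. dup, which encodes the Cdt1 homologue that loads the MCM helicase, read 66.0, 74.2 and 82.1 CPM in Double and 55.7, 68.7 and 61.7 CPM in WT. Double replicate 1 lay below WT replicate 2, and the log2 fold change of 0.26 (SE 0.11) had an edgeR adjusted p of 0.376. geminin, which encodes the inhibitor of Dup, read 102, 120 and 101 CPM in Double and 99.2, 101 and 101 CPM in WT (log2 fold change 0.09, SE 0.08). Double replicate 2 alone stood out from the other libraries. Orc1, the E2F-controlled subunit of the origin recognition complex, read 25.5, 32.4 and 28.0 CPM in Double and 20.8, 24.3 and 26.9 CPM in WT (log2 fold change 0.26, SE 0.13; edgeR adjusted p = 0.476). Orc2, another subunit, read 22.0, 27.3 and 28.6 CPM in Double and 19.3, 26.5 and 19.1 CPM in WT (log2 fold change 0.27, SE 0.16). Both pairs of groups overlapped. Orc5 and Orc6 were the scarcest, at 17.5 ± 2.19 and 8.11 ± 1.92 CPM in Double and 16.5 ± 0.75 and 7.86 ± 1.25 CPM in WT.

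The 6 MCM genes, subunits of the replicative helicase, moved together from library to library. dpa, which encodes Mcm4, read 118, 156 and 144 CPM in Double and 112, 128 and 129 CPM in WT, and Mcm5 read 71.4, 94.8 and 88.9 CPM in Double and 72.8, 91.4 and 77.4 CPM in WT. In all 6 genes Double replicate 1 was the lowest Double library, WT replicate 1 the lowest WT library, and Double replicate 2 the highest of all. Their mean centred level was -0.17, 0.20 and 0.12 on the log2 scale in Double replicates 1, 2 and 3, and -0.18, 0.06 and -0.02 in WT replicates 1, 2 and 3. The group difference of 0.10 was smaller than the pooled SD of 0.16 within groups, and the log2 fold changes of the 6 ran from 0.05 for Mcm6 to 0.18 for dpa.

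The DNA synthesis genes were also lowest in replicate 1 of each group. PCNA read 144, 176 and 164 CPM in Double and 152, 165 and 155 CPM in WT (log2 fold change 0.04, SE 0.08; edgeR adjusted p = 0.881). RnrL, the large subunit of ribonucleotide reductase, which makes deoxynucleotides, read 160, 191 and 180.0 CPM in Double and 142, 174 and 164 CPM in WT. Its small subunit RnrS read 98.8, 138 and 132 CPM in Double and 100.2, 139 and 121 CPM in WT. In the 3 genes replicate 2 was the highest library of each group, and for RnrS WT replicate 2 was the highest of all 6. The log2 fold changes of RnrL and RnrS were 0.14 (SE 0.10) and 0.03 (SE 0.16), and 0 of the 3 genes were called.

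Mitotic cyclins and their regulators gave 6 estimates above 0 of 6, with a median of 0.12 and 0 called. CycA (3L, 11826719 to 11833578, minus strand, dm6 coordinates), whose product is needed to enter mitosis in Drosophila, read 339, 344.5 and 329 CPM in Double and 279, 307.5 and 311 CPM in WT. All Double libraries lay above all WT libraries, with a log2 fold change of 0.17, an SE of 0.07 and an edgeR adjusted p of 0.351. CycB, another mitotic cyclin gene, read 286, 336 and 326 CPM in Double and 267, 289 and 288.5 CPM in WT (log2 fold change 0.17, SE 0.08; edgeR adjusted p = 0.45). stg, the Cdc25 phosphatase gene String, read 114.7, 145 and 130 CPM in Double and 104, 114 and 116 CPM in WT, with a log2 fold change of 0.22 (SE 0.09; edgeR adjusted p = 0.382). In both genes Double replicate 1 fell within the WT range. Cdk1 itself was flat, at 117, 129 and 121 CPM in Double and 115.5, 128 and 117 CPM in WT (log2 fold change 0.03, SE 0.07). CycB3 was at 108 ± 12.5 CPM in Double and 106 ± 3.25 CPM in WT, and Myt1 at 21.8 ± 0.80 CPM in Double and 20.7 ± 1.62 CPM in WT.

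Of the 3 mitotic kinases, aurB alone had groups that did not overlap (33.3%, against 19.5% of all tested genes). aurB (2L, 10856797 to 10858094, minus strand), the catalytic kinase of the chromosomal passenger complex, which corrects spindle attachments and drives cytokinesis, read 37.8, 57.3 and 49.3 CPM in Double and 59.4, 67.4 and 59.5 CPM in WT. Every Double library lay below every WT library, with Double replicate 1 the lowest of the 6. Its log2 fold change of -0.37 (SE 0.15) was the lowest of the 38 genes, with an edgeR adjusted p of 0.367, and without Double replicate 1 the value was -0.23. aurA, the centrosomal Aurora kinase, read 16.5, 32.7 and 32.5 CPM in Double and 20.0, 29.0 and 25.0 CPM in WT. It had the largest within-group SD of the 38, at 0.44 on the log2 scale, and a log2 fold change of 0.15 (SE 0.29), which was 0.40 without Double replicate 1. The exons of aurA share 153 bases with CG12213 on the opposite strand, whose counts were 8111 over the 6 libraries against 1684 for aurA. polo, the Polo kinase gene, read 297, 343 and 310.0 CPM in Double and 290.0, 326 and 315 CPM in WT (log2 fold change 0.03, SE 0.08). None of the 3 was called.

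Of the 5 spindle checkpoint and APC/C genes 0 were called. The groups did not overlap for 2 on the higher side in Double and 1 on the lower side, against 10.3% and 9.11% of all tested genes. Bub1 (2L, 5278865 to 5283283, plus strand), a kinetochore kinase gene, read 46.2, 55.5 and 51.7 CPM in Double and 40.7, 40.05 and 42.2 CPM in WT. All Double libraries were higher, the log2 fold change was 0.32 (SE 0.09), and the edgeR adjusted p of 0.164 was the smallest of the 38 genes. Its p stood at rank 339 of the 8802 tested genes. BubR1, the checkpoint gene related to Bub1, read 126, 147 and 136 CPM in Double and 108, 122 and 129 CPM in WT (log2 fold change 0.19, SE 0.09; edgeR adjusted p = 0.443), with Double replicate 1 below WT replicate 3. Bub3, the third checkpoint member, was at 144 ± 6.39 CPM in Double and 144 ± 3.16 CPM in WT, with a log2 fold change of 0.00 (SE 0.06).

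The 2 APC/C activators lay on opposite sides. fzr (X, 4667290 to 4679537, minus strand), the Cdh1 homologue that keeps the APC/C active in G1 and is needed for the switch to endoreplication in other fly tissues, read 22.9, 30.1 and 30.7 CPM in Double and 34.1, 33.5 and 35.7 CPM in WT. It differed by a log2 fold change of -0.30, with an SE of 0.12 and an edgeR adjusted p of 0.358, and without Double replicate 1 the value was -0.19. fzy, the Cdc20 homologue that acts in mitosis, read 122, 126 and 128 CPM in Double and 113, 120 and 121 CPM in WT (log2 fold change 0.09, SE 0.06). Double was lower than WT without overlap for fzr, as for 9.11% of all tested genes, and higher for fzy, as for 10.3%. Neither passed the test.

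**Figure D3:**
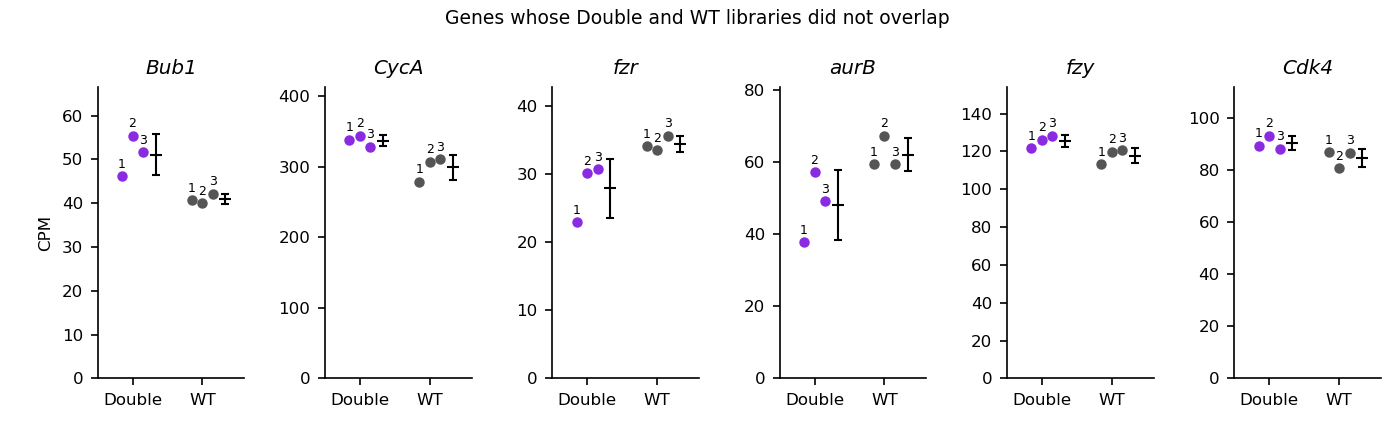
CPM in each library (points numbered by replicate) with the mean and SD of 3 Double and 3 WT libraries, for the 6 genes whose groups did not overlap, ordered by p. Groups did not overlap for 15.8% of the 38 genes and 19.5% of all tested genes. fzr and aurB were lower in Double, and Bub1, CycA, fzy and Cdk4 higher; none passed the test across all genes.

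G1-S and G2-M genes were set against each other in every library, as the mean over genes of the log2 CPM centred on each gene's own mean. The G1-S mean was -0.09, 0.17 and 0.05 in Double replicates 1, 2 and 3, and -0.15, 0.04 and -0.03 in WT replicates 1, 2 and 3. The G2-M mean was -0.13, 0.14 and 0.07 in Double and -0.11, 0.03 and 0.00 in WT. Both phases were thus lowest in replicate 1 and highest in replicate 2 of each group. Their difference, G1-S minus G2-M, was 0.05, 0.03 and -0.02 in Double and -0.04, 0.01 and -0.03 in WT.

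The balance between the phases differed little between the groups. The difference averaged 0.02 ± 0.03 in Double and -0.02 ± 0.03 in WT. This shift of 0.04 on the log2 scale was larger than the pooled SD of 0.03, but the libraries of the groups overlapped. Without the genes whose phase is ambiguous (CycA, geminin, fzr and dap), or with the median over genes in place of the mean, the shift was 0.02. The summed expression of the G1-S genes was 1.33, 1.38 and 1.38 times that of the G2-M genes in Double and 1.34, 1.41 and 1.36 times in WT. Median log2 fold changes were 0.09 for G1-S and 0.08 for G2-M. No p is attached to these summaries, because the genes were listed with results of these libraries known.

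**Figure D4:**
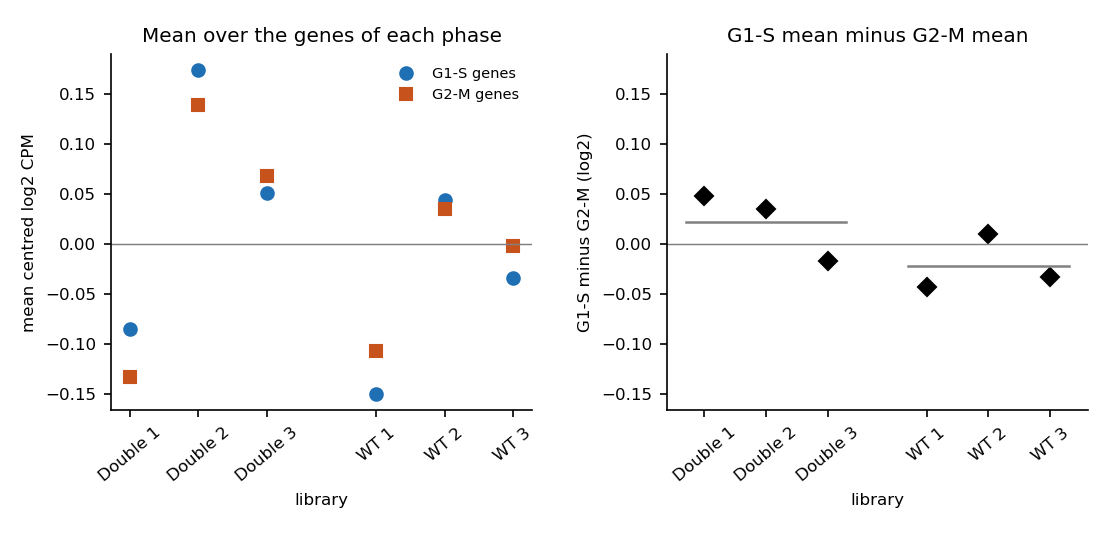
Left, mean centred log2 CPM of the 24 G1-S genes (blue circles) and the 14 G2-M genes (orange squares) in each library; right, their difference on the same scale, with grey lines at the group means. The 2 phases move together between libraries, from -0.15 to 0.17, while their difference stays between -0.04 and 0.05.

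The mean centred level of all 38 genes differed by 0.08 on the log2 scale between Double and WT, which was less than the pooled SD of 0.11 between libraries of a group. Double replicate 2 was the highest of the 6 libraries for 28 of the 38 genes (73.7%), against 17.3% of all tested genes, and WT replicate 1 the lowest for 22 (57.9%), against 26.3%. Within Double, replicate 1 was the lowest for 30 of the 38, and within WT, replicate 1 was the lowest for 31. Among the genes that left this order, CycD and E2f2 were highest of all in WT replicate 1, at 82.8 and 58.3 CPM. The median within-group SD of the 38 genes was 0.13 on the log2 scale, against 0.14 over all tested genes. For G1-S genes it was 0.15 and for G2-M genes 0.10.

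The sums of the fat body markers ran against the cell cycle levels within Double and with them within WT. In Double, replicates 1, 3 and 2 had sums of 13861, 8843 and 3522 CPM and mean centred levels of -0.10, 0.06 and 0.16 on the log2 scale. In WT, replicates 1, 3 and 2 had sums of 384, 5014 and 7102 CPM and mean centred levels of -0.13, -0.02 and 0.04. The part of these tissues in the differences between libraries was not tested.

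**Figure D5:**
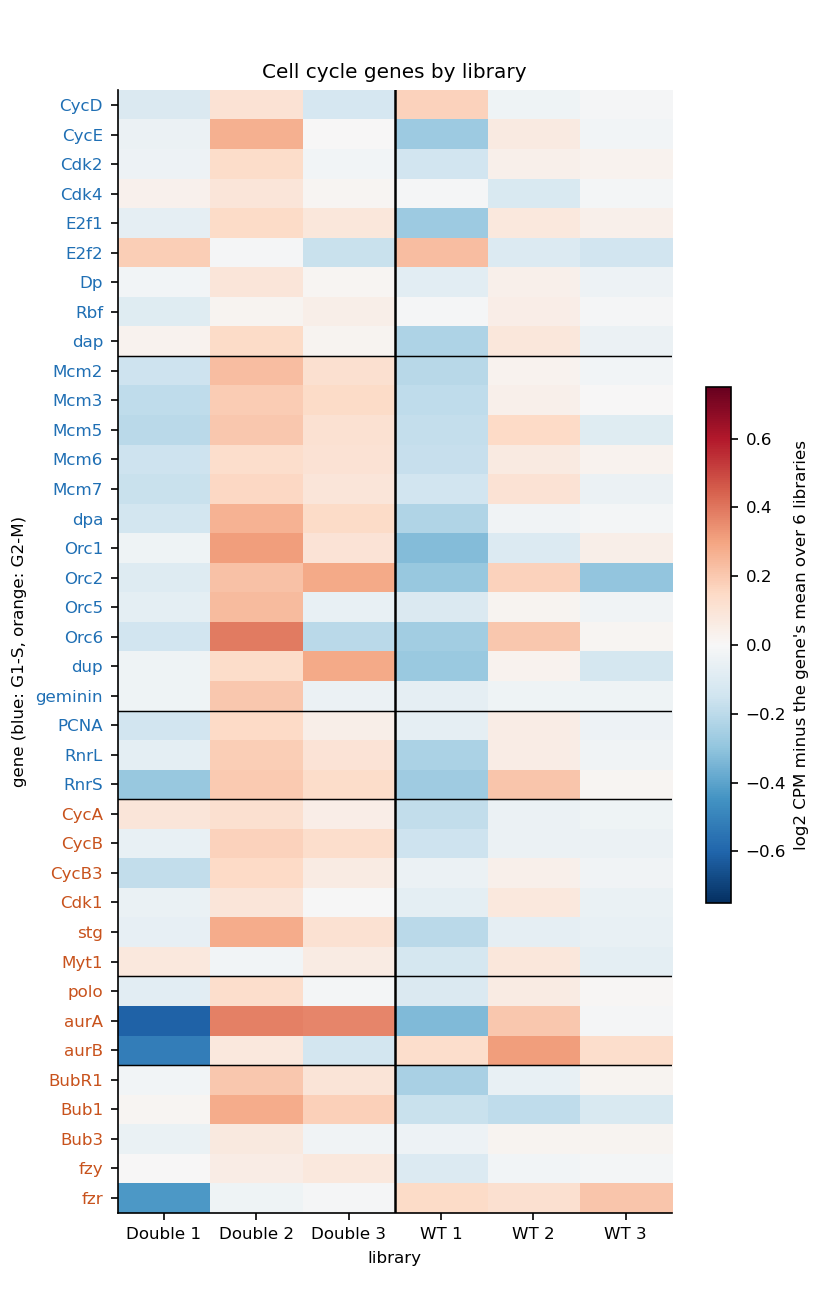
Log2 CPM of each gene minus its mean over the 6 libraries (red, higher; blue, lower), Double libraries left and WT libraries right of the line, genes grouped by role. Double replicate 2 is the reddest column, and Double replicate 1 and WT replicate 1 are mostly blue. fzr is clearly blue only in Double replicate 1, near white in Double replicates 2 and 3, and pale red in all WT libraries.

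Other genes of the cell cycle were alike in calls and in the side of most estimates, but their number above 0 depended less on WT replicate 1. Of 110 further genes of replication forks, origins, mitotic entry, kinetochores, spindle and cytokinesis, APC/C, Rbf and Myb complexes and growth or checkpoint control, 107 were tested and 0 were called in either direction. The genes not tested were Orc3, CycJ and Myb. DESeq2 also called 0. Their median log2 fold change was 0.10, with 87 estimates (81.3%) above 0, against 50.1% of all tested genes. At an unadjusted p under 0.05 stood 12 on the higher and 1 on the lower side (12.1% in all, against 12.3% of all tested genes). Without Double replicate 2 the number above 0 was 70, against 48.3% of all tested genes, and without WT replicate 1 it was 81, against 52.9%.

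The median log2 fold changes of the 8 lists ran from -0.01 for the 5 tested Rbf and Myb complex genes, without Myb itself, to 0.13 for the 16 passenger, spindle and cytokinesis genes. The gene with the smallest p of each list is given here as its extreme, not as typical of it. PolE2, a subunit of the leading-strand polymerase, had the largest estimate, at 19.8 ± 3.43 CPM in Double and 13.96 ± 2.21 CPM in WT (log2 fold change 0.51, SE 0.17; edgeR adjusted p = 0.256). Rbf2, the second retinoblastoma family gene, was at 28.2 ± 3.48 CPM in Double and 21.4 ± 1.21 CPM in WT (log2 fold change 0.40, SE 0.11; edgeR adjusted p = 0.184). trbl, whose product destabilizes String, was at 70.1 ± 5.08 CPM in Double and 58.2 ± 2.14 CPM in WT (log2 fold change 0.27, SE 0.08; edgeR adjusted p = 0.185). Log2 fold changes were 0.22 for the centromere gene Cenp-C, 0.30 for the separase gene Sse, 0.24 for the chromatin assembly gene Caf1-180 and 0.15 for the inhibitory kinase gene Wee1. Det, the survivin homologue, was the only one of the 8 below 0, at -0.31 (SE 0.10).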

How the data were processed

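Values start from raw read counts for each gene, deposited as 1 table without normalization, for 3 Double and 3 WT libraries. Poly-A RNA went into strand-specific libraries read as paired ends of 150 bases, per the labels' protocols. STAR 2.7.0, HTSeq, DESeq2 and dm6 are named without role or order, per the submitters' processing notes. How strand was treated when reads were counted is not stated in the labels. Exons of 16 of the 38 genes overlap a gene on the opposite strand, so that reads of such pairs may not be fully separated. By share of exon bases the overlap was largest for Mcm7 (81.7%, with asRNA:CR45871 at 462 counts against 8876) and Cdk2 (43.9%, with CG17267 at 20 counts against 4296). For Orc1, Orc2, Orc6, dup, aurA and fzy it was 0.75% to 9.70%, but the other gene had more counts. For fzy this was cact, at 8951 counts against 8028, and for dup SRPK, at 15942 against 4457.

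Names, positions and exon lengths came from the Ensembl annotation BDGP 6.54, release 115, in dm6 coordinates. Groups were taken from sample titles. The test was edgeR 4.0.16 (R 4.3.3; TMM, filterByExpr, robust quasi-likelihood F test, group only) on all 8802 genes left by the filter, called at a Benjamini-Hochberg adjusted p under 0.05. Standard errors are the size of the log2 fold change over the square root of F. It was tested on simulated data. Phase means used log2 CPM with a prior count of 2. Alternatives were RLE factors, library totals, no count filter, a filter of 1 CPM in 3 libraries, DESeq2 1.42.0, limma-voom (limma 3.58.1), the replicate number as a block, each library left out, other phase assignments, the median, and a prior count of 0.5. Genes and lists were chosen with earlier results of these data known. Values per library are given for genes past the threshold or without overlap, the 3 smallest p per role, and CycE, stg, E2f1, PCNA, dap, CycB, Rbf, Cdk1 and geminin; for other lists the smallest p. The remaining genes are given by their means or fold changes, and the library values of dpa and Mcm5 were added after they were seen. Of the names in the other cell cycle lists 5 were not matched, and older spellings were brought to current symbols. A promoter motif search was not done.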

Additional observations from a re-analysis of the deposited data

How the results depend on the processing

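The count of 0 called among the 38 genes held under all 13 alternatives run for it, as did the directions of 16 of the 23 genes chosen by the rule for values per library. Leaving out single libraries turned the sign of 7 genes that were not called: the log2 fold changes ran from -0.0028 to 0.16 for E2f1, from -0.053 to 0.010 for Rbf, from -0.028 to 0.11 for PCNA, from -0.082 to 0.16 for RnrS, from -0.014 to 0.075 for Cdk1, from -0.032 to 0.066 for polo and from -0.0068 to 0.40 for aurA. Median log2 fold changes ran from 0.02 to 0.15 for G1-S and from 0.02 to 0.12 for G2-M, and the shift between phases from 0.03 to 0.06, all without single libraries; the shift was 0.02 without the genes of ambiguous phase or with the median. Over all genes 131 were called, 293 with DESeq2 and 46 to 157 without single libraries. Same-numbered libraries did not meet the bar for pairing, a correlation of deviations over 0.1 in every pair, over all genes (-0.07, -0.25 and 0.39 for replicates 1, 2 and 3) or over the 38 genes (0.58, 0.36 and 0.02). For differently numbered libraries the correlations ran from -0.45 to 0.42 over all genes and from -0.55 to 0.43 over the 38 genes. With the replicate block 0 of the 38 genes were called. At an unadjusted p under 0.05 stood 11 of the 38, against 1294 of the 8802 tested genes. The block called 166 genes in all, among them 1 other cell cycle gene, pav (edgeR adjusted p = 0.0256, against 0.309 without the block). No scaling moved the median of all genes by more than 0.02 on the log2 scale. With 3 libraries each, precision was lowest for aurA and Orc6, whose standard errors were 0.29 and 0.23 on the log2 scale; Orc6 had 69 to 114 counts per library.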

Other observations

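The chromosomal passenger complex was looked at as a whole after aurB had been seen. Of its 4 genes, 3 were lower in all Double than in all WT libraries, as were 9.11% of all tested genes, and aurB had prompted the choice: aurB as given above, Det at 21.7, 26.0 and 24.8 CPM in Double and 30.6, 30.4 and 28.7 CPM in WT, and borr, the borealin gene, at 88.3, 92.3 and 95.2 CPM in Double and 101, 109 and 96.7 CPM in WT. Incenp, the scaffold that binds the other subunits, was at 191, 227 and 212 CPM in Double and 184, 208 and 190 CPM in WT. On the log2 scale Det differed by -0.31 (SE 0.10), borr by -0.15 (SE 0.07) and Incenp by 0.12 (SE 0.08). The edgeR adjusted p was 0.231 for Det, 0.411 for borr and 0.614 for Incenp, so that no call was made.

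Ratios within 9 pairs of opposed or related cell cycle genes were compared, chosen with their values in view. aurB stood at 2.29, 1.75 and 1.52 times aurA in Double and 2.97, 2.33 and 2.38 times in WT. fzr stood at 0.188, 0.239 and 0.239 of fzy in Double and 0.302, 0.28 and 0.296 in WT, and CycB at 3.03, 2.83 and 2.91 times CycB3 in Double and 2.57, 2.63 and 2.74 times in WT. These 3 of the 9 ratios did not overlap between the groups. Of all tested genes taken singly 19.5% did not overlap, and no share was computed over other pairs of genes. The ratios with aurB and with fzr hold genes already given above as not overlapping, so they are not separate results. No p is given because the pairs were chosen with their values known. CycE over dap averaged 1.24 ± 0.09 in Double and 1.22 ± 0.03 in WT, and dup over geminin 0.695 ± 0.105 in Double and 0.616 ± 0.058 in WT (SD, n = 3 each), and these groups overlapped.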
